A study of Mus musculus with 6 samples.

Results

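The genes described here are those of the lysosome's enzymes and membrane proteins, together with Tfeb, a transcription factor that drives many of them. They came from a list of 36 genes, given by name and not by measured values, and each was read from its brightest probe set that carried exactly 1 gene symbol. Of the 36 genes, 35 were measured and all 35 passed the filter on dim signals, out of 22180 genes on the array and 15529 genes tested. The remaining gene, Glb1, lay on a probe set assigned to several genes and was not analysed here.

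The series profiled 3 sorted subsets of dermal macrophages that differ in how much of the chemokine receptor CX3CR1 they carry, on an Affymetrix expression array. The subsets are called CX3CR1low, CX3CR1int and CX3CR1high, and the title of the third calls it bright. Every sample came from the ear skin of C57Bl/6 mice aged 2 weeks, of the genotype Cx3cr1+/gfp, so all 3 subsets lacked 1 of the 2 Cx3cr1 copies, which a green fluorescent protein replaces in this reporter strain. Each sample pooled cells of 4 mice, and the 2 samples of each subset came from independent litters. No subset was treated, the mice lived in an SPF facility, and the labels give no sort marker other than CX3CR1.

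Lysosomes are acidic compartments in which macrophages degrade what they engulf and what autophagy delivers. Proteases, glycosidases, sulfatases and lipid hydrolases work in the lumen, a proton pump keeps it acidic, and heavily glycosylated proteins line the membrane. TFEB and related factors bind a palindromic element called CLEAR, found near the start of many lysosome genes, and raise their transcription when lysosomal demand is high.

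The element can be seen in the promoters of some of these genes. RefSeq promoters of the GRCm38.p6 build, from 250 bases before to 50 bases after the start, were at hand for 30 of the 35 measured genes. The core of the element, TCACGTGA, which reads the same on both strands, was found in 6 of these 30 genes (20.0%), against 1.12% of all 27025 genes with a promoter and 0.974% of all 32851 promoters. Its matches in these 6 genes are shown in windows of 30 bases. Each window reads 5′ to 3′ along the gene's strand, and the capitals mark the match.

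Atp6v0d1, chr8:105566050-105566079, minus strand: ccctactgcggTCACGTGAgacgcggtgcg
Atp6v1a, chr16:44139373-44139402, minus strand: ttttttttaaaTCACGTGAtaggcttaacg
Ctsa, chr2:164833749-164833778, plus strand: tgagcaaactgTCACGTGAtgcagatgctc
Ctsa, chr2:164833766-164833795, plus strand: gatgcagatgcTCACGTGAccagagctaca
Ctsd, chr7:142387908-142387937, minus strand: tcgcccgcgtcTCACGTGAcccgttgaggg
Gla, chrX:134601215-134601244, minus strand: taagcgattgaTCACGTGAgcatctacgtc
Gla, chrX:134601182-134601211, minus strand: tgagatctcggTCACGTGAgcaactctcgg
Mcoln1, chr8:3500462-3500491, plus strand: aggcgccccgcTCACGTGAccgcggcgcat

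Ctsa and Gla each held the core at 2 places. The shorter string CACGTG, which lies within TCACGTGA, was found on either strand in 10 of the 30 genes (33.3%), against 8.09% of all genes and 7.15% of all promoters. The 10 were the 6 genes above and Ctsl, Gaa, Lamp1 and Lgmn. TCATGTG, which also binds factors of this family and contains neither of the other strings, was found on either strand in 7 of the 30 (23.3%: Ctsa, Ctss, Gla, Grn, Ppt1, Scarb2 and Tpp1), against 4.31% of all genes and 3.77% of all promoters. Of 72 other lysosome genes with a promoter, from the wider list described below, 9.72% held TCACGTGA, 26.4% CACGTG and 9.72% TCATGTG. A match describes the letters of a promoter and not a bound site.

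Before the differences, the samples were checked against their labels. The log2 signal of Cx3cr1 was 5.87 and 7.01 for CX3CR1low, 7.05 and 6.84 for CX3CR1int and 10.55 and 9.51 for CX3CR1high samples. The receptor transcript thus separated the CX3CR1high samples from the others, while the CX3CR1low sample 2 fell within the range of CX3CR1int. Of 9 measured macrophage markers none was called in any comparison. In the same fit at most 0.399% of all genes were called in a comparison, so this count says little. Between CX3CR1high and CX3CR1low cells 8 of the 9 were lower, by at most 0.31. Cd14 was higher, without overlap (0.45 ± 0.135, SE; limma adjusted p = 0.292). The F4/80 gene Adgre1 was at 10.89 and 10.75 for CX3CR1low, 10.93 and 10.95 for CX3CR1int and 10.63 and 10.85 for CX3CR1high samples, and Csf1r, the receptor of the macrophage growth factor CSF1, ranged from 11.15 to 11.58 over all samples. RNA of other skin cells was also present. The summed linear signal of 10 fibroblast markers was 3495 and 5606 for CX3CR1low, 2909 and 2823 for CX3CR1int and 2061 and 2004 for CX3CR1high samples, so each step up in CX3CR1 went with a lower sum, without overlap. Col1a2, the brightest of the 10 (log2 signal 10.88 and 11.56 for CX3CR1low samples), weighs most in these sums.

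Most of the lysosome genes differed little across the 3 subsets, in shares close to those of all genes tested. Between CX3CR1high and CX3CR1low cells the median log2 difference of the 35 genes was -0.145, against 0.005 over all genes tested, and 31 of the 35 differed by less than 0.5, as did 91.2% of all genes. The same held for 32 of the 35 between CX3CR1high and CX3CR1int cells (92.6% of all genes) and for 33 between CX3CR1int and CX3CR1low cells (95.2%). Between CX3CR1high and CX3CR1int cells the median was -0.12, against 0 over all genes, and between CX3CR1int and CX3CR1low cells it was -0.005, against 0.01. These comparisons share samples and are not independent of one another. In bulk RNA of sorted cells, a lower signal from fewer cells of a type and from less RNA per cell cannot be told apart.

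In limma's test with Benjamini-Hochberg adjustment over all 15529 genes, called at an adjusted p below 0.05, 0 of the 35 genes were called in any of the 3 comparisons. Of all genes tested, 0.399% were called between CX3CR1high and CX3CR1low cells, 0.142% between CX3CR1high and CX3CR1int cells and 0.00644% between CX3CR1int and CX3CR1low cells. At an unadjusted p below 0.05 the counts were 3, 4 and 2 of the 35 genes, where 9.65%, 7.89% and 4.89% of all genes passed. When the fit took the replicate number as a block, 2 genes were called between CX3CR1high and CX3CR1low cells, Arsb higher and Ctsk lower, where 0.992% of all genes were called, 0.489% higher and 0.502% lower. With the block, 0 genes were called in the other comparisons, where 0.303% and 0.00% of all genes were called. The counts at an unadjusted p below 0.05 were then 5, 5 and 2 of the 35 genes, against 11.3%, 9.59% and 6.08% of all genes.

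**Figure D1:**
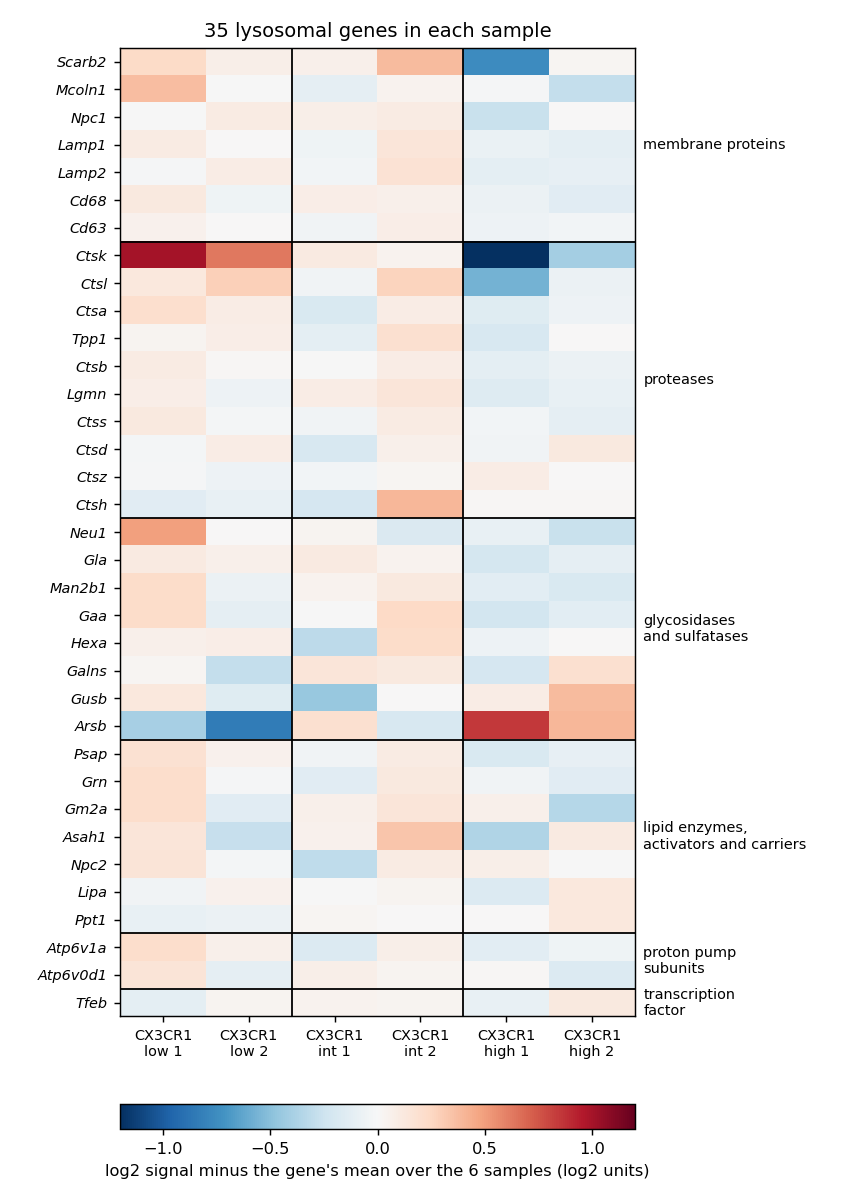
Log2 signal of the 35 lysosomal genes in each of the 6 samples, as the difference from the gene's own mean over the samples, on a colour scale in log2 units; rows are grouped by role and columns by subset. Ctsk and Arsb show the strongest contrasts between subsets, and the contrasts in the other rows are smaller.

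Most of the small differences pointed down in CX3CR1high cells. Of the 35 genes, 27 were lower and 8 higher than in CX3CR1low cells, where 48.4% of all genes were below 0, and 28 were lower and 7 higher than in CX3CR1int cells, where 49.3% were. In 21 genes both CX3CR1high samples lay below both CX3CR1low samples, and in 4 genes above them, where 18.4% and 19.8% of all genes did so. Against CX3CR1int samples the counts were 14 below and 2 above, where 18.5% and 18.3% of all genes lay apart in that way. Between CX3CR1int and CX3CR1low samples 18 genes were lower and 17 higher, where 47.6% of all genes were lower, and the samples lay apart in 1 gene below and 4 genes above (14.8% and 16.6% of all genes). The 35 genes were bright, with a median log2 signal of 10.17 against 5.82 over all genes tested. The shares of all genes were not matched for brightness. Of the 9 macrophage markers, 8 were also lower in CX3CR1high than in CX3CR1low cells.

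The shifts can be set beside the gap between the 2 samples of one subset. Means of 2 samples vary less than single samples, so the 2 measures are unlike. The absolute difference between the 2 samples of a subset had a median over the 35 genes of 0.15 in CX3CR1low, 0.15 in CX3CR1int and 0.10 in CX3CR1high, and the absolute difference between CX3CR1high and CX3CR1low means had a median of 0.155. The mean log2 signal over the 35 genes was 10.03 and 9.89 for CX3CR1low, 9.87 and 10.01 for CX3CR1int and 9.78 and 9.87 for CX3CR1high samples. The CX3CR1high sample 2 and the CX3CR1int sample 1 were thus at the same mean level, and the CX3CR1int samples covered about the same range as the CX3CR1low ones. The 95% confidence interval of the difference between CX3CR1high and CX3CR1low cells lay within 1 log2 unit of 0 for 32 of the 35 genes. A change of 2-fold or more was outside it for those genes. The same held for 14000 of all 15529 genes tested, so this was not particular to the lysosome genes.

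**Figure D2:**
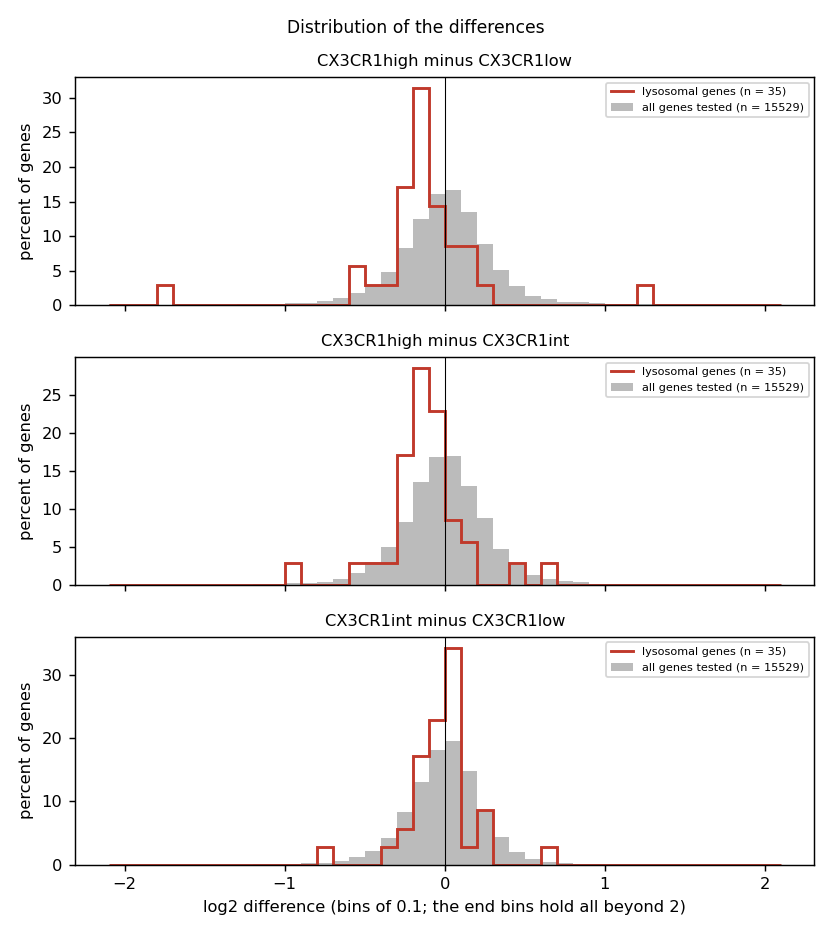
Share of genes, in percent, by log2 difference in bins of 0.1, for the 35 lysosomal genes (red line) and all 15529 genes tested (grey bars) in each of the 3 comparisons. The lysosomal genes sit slightly to the left of all genes in both comparisons with CX3CR1high cells (medians -0.145 and -0.12) and centre near 0 between CX3CR1int and CX3CR1low cells (-0.005).

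Ctsk differed most. It encodes cathepsin K, a cysteine protease that cleaves collagen, best known from bone-resorbing osteoclasts and also made by fibroblasts. Its log2 signal was 8.12 and 7.75 for CX3CR1low, 7.23 and 7.16 for CX3CR1int and 5.75 and 6.71 for CX3CR1high samples. The 3 subsets did not overlap and were ordered against the CX3CR1 level, with the widest gap between replicates, 0.96, among the CX3CR1high samples. Ctsk was 3.26-fold lower in CX3CR1high than in CX3CR1low cells (log2 difference -1.705 ± 0.297, SE; limma adjusted p = 0.0634, and 0.0367 with the replicate block). That difference exceeded, in size, those of 99.8% of all genes tested. The steps between neighbouring subsets were -0.965 ± 0.297 (CX3CR1high minus CX3CR1int, SE; adjusted p = 0.439) and -0.74 ± 0.297 (CX3CR1int minus CX3CR1low, SE; adjusted p = 0.996), neither called by limma. Without the CX3CR1high sample 2 the difference between the ends was -2.185 (adjusted p = 0.0467), and without the CX3CR1high sample 1 it was -1.225 (adjusted p = 0.258). Without the CX3CR1low sample 2, whose Cx3cr1 lay among the CX3CR1int samples, it was -1.89 (adjusted p = 0.139).

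The summed markers of fibroblasts, keratinocytes, mast cells and melanocytes were ordered like Ctsk, without overlap of the subsets. Of 10 fibroblast markers, 9 were lower in CX3CR1high than in CX3CR1low cells, 0 were called by limma without the block (8 had an unadjusted p below 0.05) and 6 were called lower with it: Col1a1, Col1a2, Col3a1, Col6a1, Dcn and Pcolce, all genes of collagens or of proteins that bind or process them. Pdgfra, little above the dim level at 4.44 to 4.85, was higher by 0.28, and Fbln1 differed by only -0.07. The collagen gene Col1a1 was at 7.86 and 8.28 for CX3CR1low, 7.39 and 7.42 for CX3CR1int and 7.05 and 6.96 for CX3CR1high samples (log2 difference between the ends -1.065 ± 0.194, SE; limma adjusted p = 0.0716, and 0.0453 with the block). The order of single samples differed between Ctsk and these markers. Within CX3CR1low, sample 2 had the higher fibroblast sum (5606 against 3495) and the lower Ctsk (7.75 against 8.12), and within CX3CR1high the fibroblast sums were close (2061 and 2004) while Ctsk differed by 0.96. The summed signal of 9 keratinocyte markers was 1673 and 2244, 1317 and 1263, and 1115 and 1053 in the same order of subsets, and that of 7 mast cell markers was 702 and 491, 395 and 348, and 169 and 155. That of 6 melanocyte markers was 219 and 271, 216 and 189, and 171 and 167. The sums of endothelial, T and NK cell, and neutrophil markers overlapped between CX3CR1int and CX3CR1high samples. Krt10 of the keratinocyte list was called lower in CX3CR1high than in CX3CR1low cells (-1.46 ± 0.234, SE; limma adjusted p = 0.0439), as were the mast cell protease genes Cpa3 (-3.37), Mcpt4 (-2.255) and Cma1 (-1.865). Cpa3 was below the dim level of 4.335 in both CX3CR1high samples, at 3.82 and 4.32. The part of these cells in the Ctsk difference was not tested.

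**Figure D3:**
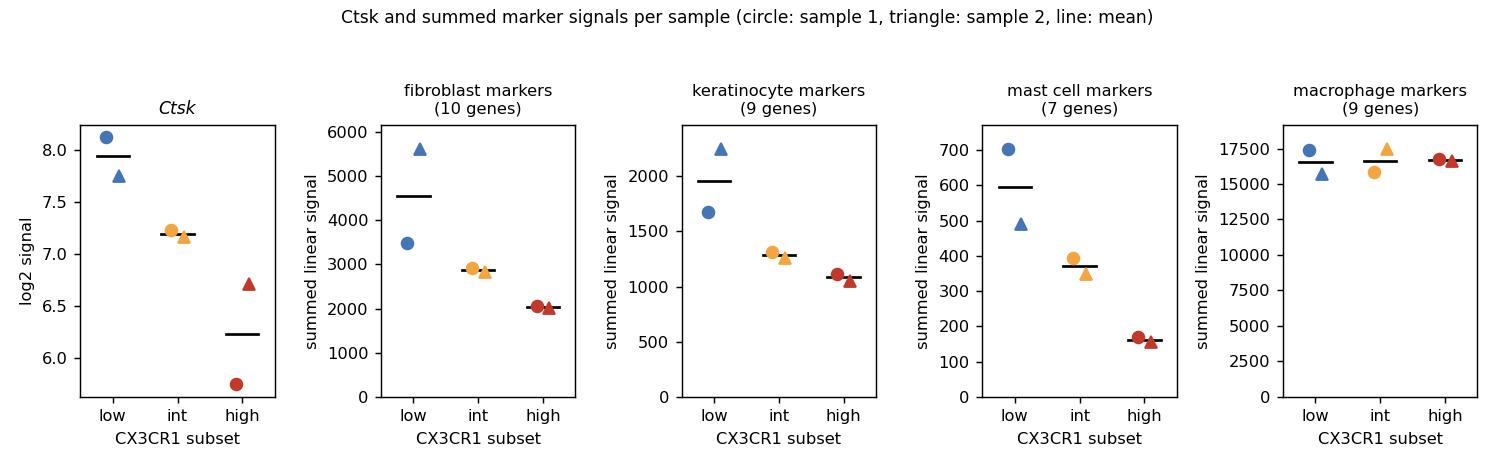
Log2 signal of Ctsk and the summed linear signal of the fibroblast, keratinocyte, mast cell and macrophage markers in each sample; circles are sample 1, triangles sample 2 and lines the mean of the subset. Ctsk and the sums for the first 3 cell types are lower at each step from CX3CR1low to CX3CR1high, while the macrophage sum stays between 15683 and 17435 in all 6 samples. The melanocyte sum, which is not drawn, was lower at each step too.

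Arsb differed in the other direction. It encodes arylsulfatase B, which removes sulfate groups from dermatan sulfate and chondroitin sulfate. The log2 signal of Arsb was 8.92 and 8.48 for CX3CR1low, 9.51 and 9.13 for CX3CR1int and 10.17 and 9.72 for CX3CR1high samples. The subsets did not overlap and were ordered with the CX3CR1 level, and in each subset sample 1 was the higher. Arsb was 2.37-fold higher in CX3CR1high than in CX3CR1low cells (log2 difference 1.245 ± 0.226, SE; limma adjusted p = 0.0716, and 0.00993 with the replicate block). The steps between neighbouring subsets were 0.625 ± 0.226 (CX3CR1high minus CX3CR1int, SE; adjusted p = 0.513) and 0.62 ± 0.226 (CX3CR1int minus CX3CR1low, SE; adjusted p = 0.988), neither called by limma. A second, dimmer probe set of Arsb gave 7.89 and 7.73, 8.10 and 7.75, and 8.70 and 8.61, so that its difference of 0.845 between the ends lay almost all between CX3CR1int and CX3CR1high (0.73). Without the CX3CR1low sample 2 the difference between the ends was 1.025 (adjusted p = 0.265).

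The 250 bases before the start of Ctsk and Arsb are shown because these were the only 2 of the 35 genes called with the block. CACGTG and TCATGTG were found in neither stretch on either strand, so no letter is in capitals.

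Arsb, chr13:93771429-93771678, plus strand: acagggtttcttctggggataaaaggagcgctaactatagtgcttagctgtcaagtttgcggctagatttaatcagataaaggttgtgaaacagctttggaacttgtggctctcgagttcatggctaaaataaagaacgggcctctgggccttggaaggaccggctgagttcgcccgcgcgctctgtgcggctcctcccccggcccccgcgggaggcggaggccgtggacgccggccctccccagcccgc
Ctsk, chr3:95498960-95499209, plus strand: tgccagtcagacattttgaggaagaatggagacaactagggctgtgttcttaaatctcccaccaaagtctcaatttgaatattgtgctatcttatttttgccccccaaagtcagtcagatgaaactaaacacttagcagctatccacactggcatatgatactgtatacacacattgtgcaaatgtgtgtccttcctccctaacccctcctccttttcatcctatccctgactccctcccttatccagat

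**Figure D4:**
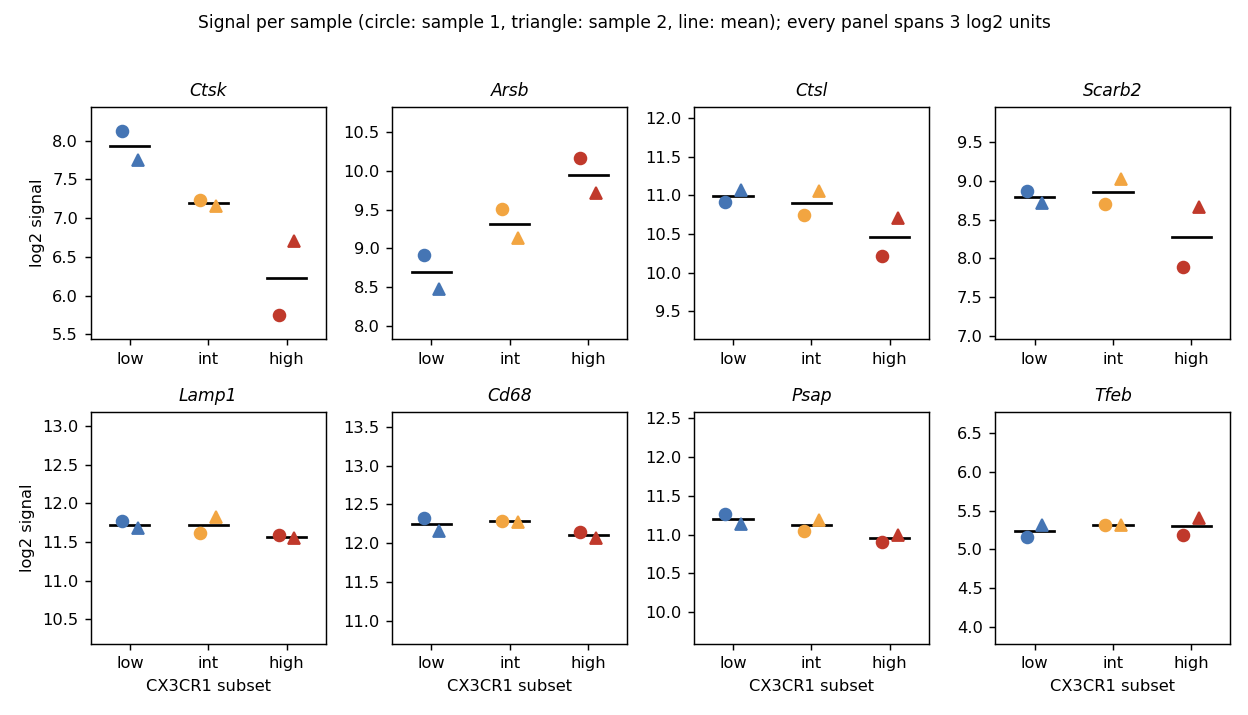
Log2 signal of 8 genes in each sample, with circles for sample 1, triangles for sample 2 and lines for the mean; every panel spans 3 log2 units, centred on its own gene. Ctsk is lower and Arsb higher at each step up in CX3CR1, the CX3CR1high samples of Ctsl and Scarb2 are spread, and Lamp1, Cd68, Psap and Tfeb are nearly flat.

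Among the other proteases none was called. Of all 10 proteases 7 were lower and 3 higher in CX3CR1high than in CX3CR1low cells, with a median difference of -0.14. Ctsl, the gene of the endopeptidase cathepsin L, was at 10.91 and 11.07 for CX3CR1low, 10.74 and 11.05 for CX3CR1int and 10.21 and 10.71 for CX3CR1high samples. The CX3CR1high samples lay below all others, by -0.53 ± 0.187 against CX3CR1low cells (SE; limma adjusted p = 0.388) and by -0.435 ± 0.187 against CX3CR1int cells (SE; adjusted p = 0.617). Without the CX3CR1high sample 1 the first of these was -0.28. Ctsb, which encodes the abundant protease cathepsin B, was at 12.23 and 12.15, 12.13 and 12.22, and 12.02 and 12.06 in the 3 subsets, a difference of -0.15 between the ends with an interval from -0.375 to 0.0752.

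Ctsa encodes protective protein, a carboxypeptidase that also stabilises neuraminidase 1 and beta-galactosidase. It was at 11.07 and 10.96 for CX3CR1low, 10.69 and 10.96 for CX3CR1int and 10.72 and 10.81 for CX3CR1high samples (-0.25 ± 0.137 between the ends, SE; limma adjusted p = 0.627). Lgmn, the gene of the asparaginyl endopeptidase legumain, which processes other cathepsins, was at 11.47 and 11.33, 11.48 and 11.54, and 11.24 and 11.30. Both CX3CR1high samples were below all others, by -0.24 ± 0.114 against CX3CR1int cells (SE; limma adjusted p = 0.646). The aspartic protease gene Ctsd (0.005), Ctss, whose product trims the invariant chain of MHC class II (-0.115), the peptidase genes Ctsh (0.125) and Ctsz (0.085) and the tripeptidyl peptidase gene Tpp1 (-0.155) differed little between CX3CR1high and CX3CR1low cells.

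All 7 membrane protein genes were lower in CX3CR1high than in either other subset, and 0 were called. Their differences from CX3CR1low cells ran from -0.51 to -0.07, with a median of -0.155. In 6 of the 7 both CX3CR1high samples lay below both CX3CR1low ones, as they did in 18.4% of all genes. Lamp1, which encodes one of the main glycoproteins of the lysosome membrane, was at 11.77 and 11.68 for CX3CR1low, 11.62 and 11.82 for CX3CR1int and 11.59 and 11.55 for CX3CR1high samples (-0.155 ± 0.115, SE; limma adjusted p = 0.739). Its relative Lamp2, also needed for autophagy of chaperone-bound proteins, was at 10.71 and 10.82, 10.70 and 10.90, and 10.61 and 10.63. Cd68, a macrophage member of the same family and a common histological marker, was at 12.33 and 12.16, 12.29 and 12.27, and 12.14 and 12.07. In all 3 genes the CX3CR1high samples were lowest, and all 3 intervals between CX3CR1high and CX3CR1low cells lay between -0.441 and 0.151.

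Scarb2 encodes LIMP-2, the receptor that carries glucocerebrosidase to lysosomes. It was at 8.87 and 8.71 for CX3CR1low, 8.70 and 9.02 for CX3CR1int and 7.89 and 8.67 for CX3CR1high samples. Its lower mean in CX3CR1high cells (-0.51 ± 0.255 against CX3CR1low, SE; limma adjusted p = 0.582; -0.58 ± 0.255 against CX3CR1int, SE; adjusted p = 0.633) came mainly from sample 1, and without that sample the difference from CX3CR1low cells was -0.12. The calcium channel gene Mcoln1 (-0.335), the cholesterol transporter gene Npc1 (-0.175) and the tetraspanin gene Cd63 (-0.07) made up the rest of the group between the ends. A second, dimmer probe set of Npc1 gave 0.105 between the ends and 0.41 between CX3CR1high and CX3CR1int cells, against -0.21 on the brighter one, so the 2 probe sets disagreed in sign.

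**Figure D5:**
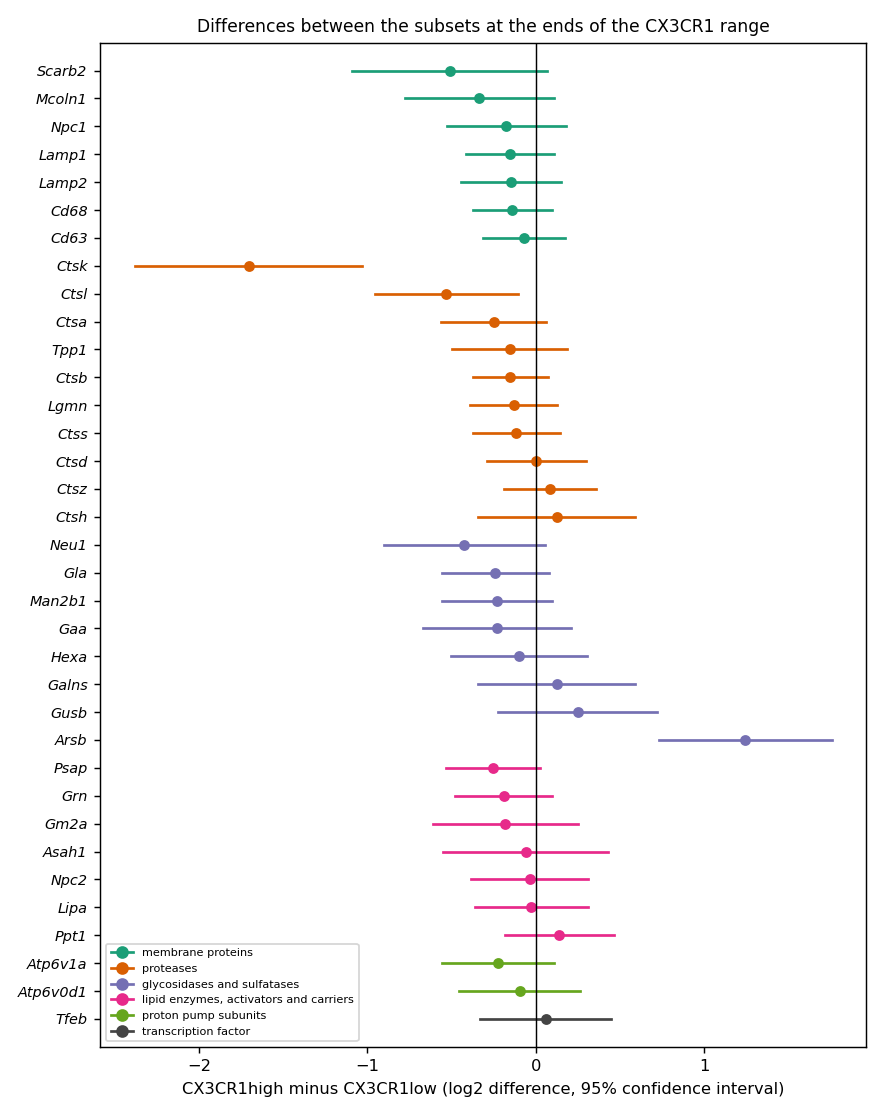
Log2 difference between CX3CR1high and CX3CR1low cells (points) with its 95% confidence interval (lines) for the 35 lysosomal genes, coloured by role. Ctsk (-1.705), Ctsl (-0.53) and Arsb (1.245) have intervals that leave out 0, before any adjustment for the number of genes tested.

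Of the 8 measured glycosidase and sulfatase genes, 5 were lower and 3 higher in CX3CR1high than in CX3CR1low cells, with a median of -0.165. Neu1, the gene of the sialidase that works in a complex with protective protein, was at 8.25 and 7.76 for CX3CR1low, 7.79 and 7.58 for CX3CR1int and 7.67 and 7.49 for CX3CR1high samples. Both CX3CR1high samples were below both CX3CR1low ones, while the CX3CR1low samples themselves differed by 0.49 (-0.425 ± 0.211, SE; limma adjusted p = 0.577). Without the CX3CR1low sample 1 the Neu1 difference was -0.18, and without the CX3CR1low sample 2 it was -0.67. Gusb, which encodes beta-glucuronidase, was at 8.99 and 8.72, 8.41 and 8.87, and 8.96 and 9.25, and both CX3CR1high samples were above both CX3CR1int ones (0.465 ± 0.208, SE; limma adjusted p = 0.636). This Gusb difference was 0.235 without the CX3CR1int sample 1 and 0.695 without the CX3CR1int sample 2.

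Gaa, the gene of the acid glucosidase that degrades glycogen, was at 7.07 and 6.75 for CX3CR1low, 6.85 and 7.09 for CX3CR1int and 6.63 and 6.73 for CX3CR1high samples (-0.23 ± 0.193 between the ends, SE). Galns, which encodes a sulfatase of keratan sulfate, was at 6.88 and 6.57, 7.00 and 6.97, and 6.65 and 7.05 (0.125 ± 0.206, SE). Only the first of these 2 had CX3CR1high samples clear of both other subsets, and limma called neither (adjusted p = 0.784 and 0.910). The galactosidase gene Gla (-0.24), the mannosidase gene Man2b1 (-0.23) and Hexa, the gene of a hexosaminidase subunit (-0.10), were lower by small amounts between the ends. So Arsb, and none of the other 7 genes of the group, differed by more than 1 log2 unit between the ends. The difference between Arsb and the others was not tested.

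The 7 genes of lipid enzymes, activators and carriers stayed within 0.255 of 0 between the ends. Psap, whose product prosaposin is cut into activators of sphingolipid breakdown, was at 11.27 and 11.14 for CX3CR1low, 11.05 and 11.19 for CX3CR1int and 10.91 and 10.99 for CX3CR1high samples. The CX3CR1high samples were the lowest (-0.255 ± 0.122, SE; limma adjusted p = 0.558). Grn, the gene of progranulin, a partner of prosaposin in its transport, was at 12.33 and 12.10, 11.98 and 12.23, and 12.07 and 11.98, with CX3CR1int and CX3CR1high samples overlapping. The ganglioside activator gene Gm2a (-0.18), the ceramidase gene Asah1 (-0.06), the cholesterol carrier gene Npc2 (-0.035), the acid lipase gene Lipa (-0.025) and the thioesterase gene Ppt1 (0.14) completed the group.

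Atp6v1a, which encodes the ATP-binding subunit of the proton pump, was at 10.38 and 10.23 for CX3CR1low, 10.00 and 10.24 for CX3CR1int and 10.04 and 10.12 for CX3CR1high samples (-0.225 ± 0.146 between the ends, SE; limma adjusted p = 0.695). The other pump gene of the list, Atp6v0d1, differed by -0.095. Tfeb itself was at 5.16 and 5.31 for CX3CR1low, 5.32 and 5.31 for CX3CR1int and 5.19 and 5.40 for CX3CR1high samples, little above the dim level of 4.335. The 3 subsets overlapped, and the difference between the ends was 0.06 ± 0.171 (SE; limma adjusted p = 0.949), with an interval from -0.329 to 0.449. The 6 genes whose promoter held TCACGTGA had a median difference of -0.2325 between the ends, over a range from -0.335 (Mcoln1) to 0.005 (Ctsd). The median over all 35 genes was -0.145. The gap between these medians was not tested.

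A wider list of 94 other lysosome genes was examined in the same way. Of these, 87 were measured and 83 tested, and 0 were called by limma in any comparison. At an unadjusted p below 0.05 the counts were 14, 10 and 8 of the 83 (high minus low, high minus int and int minus low), where 9.65%, 7.89% and 4.89% of all genes passed. Their median difference between CX3CR1high and CX3CR1low cells was -0.18, with 65 genes lower and 18 higher, where 48.4% of all genes were lower. With the block 0.992% of all genes were called between the ends, and of the 83 only Acp5, the gene of the tartrate-resistant acid phosphatase of osteoclasts and macrophages. It was at 7.18 and 7.12 for CX3CR1low, 6.93 and 7.27 for CX3CR1int and 8.17 and 8.24 for CX3CR1high samples. The CX3CR1high samples stood above both other subsets, which overlapped (1.055 ± 0.184 between the ends, SE; limma adjusted p = 0.064, and 0.0399 with the block; 1.105 ± 0.184 against CX3CR1int cells, SE; adjusted p = 0.0871).

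Of 21 other hydrolase genes tested, 18 were lower between the ends, among them the sphingomyelinase gene Smpd1 (-0.50) and the heparan sulfate enzyme gene Naglu (-0.58). Smpd1 was at 6.57 and 6.33, 6.61 and 6.67, and 5.98 and 5.92, so that its CX3CR1high samples were clear of both other subsets (-0.69 ± 0.176 against CX3CR1int cells, SE; limma adjusted p = 0.306). Of 16 other membrane protein and transporter genes 13 were lower, among them Gpnmb (-0.785 ± 0.212, SE; limma adjusted p = 0.237), a macrophage glycoprotein induced by lysosomal load, and the sialomucin gene Cd164 (-0.465). Slc11a1, the gene of a phagosomal metal transporter, was at 9.30 and 8.90, 8.53 and 8.35, and 9.44 and 8.97, lowest in the CX3CR1int samples (0.765 for CX3CR1high minus CX3CR1int and -0.66 for CX3CR1int minus CX3CR1low).

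Of 14 further proton pump genes 12 were lower between the ends. Atp6v0d2, an isoform prominent in osteoclasts and macrophages, was at 9.31 and 8.95 for CX3CR1low, 8.81 and 9.16 for CX3CR1int and 7.50 and 8.50 for CX3CR1high samples. As with Ctsk, Ctsl and Scarb2, the CX3CR1high sample 1 was the lowest of the 6 (-1.13 ± 0.307, SE; limma adjusted p = 0.239). Atp6v0b followed the pattern of Slc11a1, at 10.50 and 10.74, 9.82 and 10.13, and 10.82 and 10.61 (0.74 ± 0.163 for CX3CR1high minus CX3CR1int, SE; limma adjusted p = 0.205). Of 12 genes of delivery to lysosomes, the adaptor gene Gga1 was lower (-0.65 ± 0.168 between the ends, SE; limma adjusted p = 0.211), and the sorting receptor genes M6pr (0.40) and Sort1 (0.46) were higher.

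Among 6 tested genes of cathepsin inhibitors, Cst6 was at 6.64 and 7.30, 5.28 and 6.66, and 5.93 and 5.87 (-1.07 ± 0.401 between the ends, SE; limma adjusted p = 0.427), and Cst7, the gene of cystatin F, differed by 0.32. Between CX3CR1int and CX3CR1low cells 3 of the 6 differed by at least 1 log2 unit, as did 76 of all 15529 genes. The lowest was -1.75, but 0 of the 6 had both CX3CR1int samples below both CX3CR1low ones. For CX3CR1high minus CX3CR1int cells the highest of the 6 was 1.27. Mitf, a relative of Tfeb that binds the same family of elements, was at 7.35 and 7.04 for CX3CR1low, 7.31 and 7.21 for CX3CR1int and 7.86 and 7.51 for CX3CR1high samples. Its CX3CR1high samples were above all others by a difference that limma did not call (0.49 ± 0.20 against CX3CR1low cells, SE; adjusted p = 0.486). Of the 14 tested regulators it had the highest difference between the ends, and the lowest was -0.295.

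Other cell types were checked by their defining markers. Cd207, the langerin gene of Langerhans cells and some dermal dendritic cells, was at 6.72 and 6.48 for CX3CR1low, 6.00 and 6.85 for CX3CR1int and 7.57 and 8.07 for CX3CR1high samples, and like Arsb and Acp5 it was highest in the CX3CR1high samples (1.22 ± 0.294 between the ends, SE; limma adjusted p = 0.181). The summed signal of the 5 measured Langerhans cell markers was 311 and 358, 253 and 323, and 364 and 460. The other 3 tested markers of the list were lower between the ends, namely Cdh1 (-0.57), Epcam (-0.16) and Cd1d1 (-0.095), of which limma called 0, and the median of all 4 was -0.1275. The part of such cells in the Arsb and Acp5 differences was not tested. The endothelial cadherin gene Cdh5 was at 6.95 and 6.74 for CX3CR1low, 5.91 and 6.62 for CX3CR1int and 5.94 and 5.21 for CX3CR1high samples. Like Ctsk it was lowest in mean in the CX3CR1high samples (-1.27 ± 0.298 between the ends, SE; limma adjusted p = 0.177), while the endothelial gene Pecam1 differed by -0.05. The part of endothelial cells in the Ctsk difference was not tested. The keratinocyte gene Krt14 (-0.585) was not called. All 5 tested melanocyte markers were lower between the ends, with a median of -0.555, and limma called 0. All 5 had an unadjusted p below 0.05, where 9.65% of all genes did. Kit, on this list, is also on the mast cell list, and Tyrp1 had a mean log2 signal of 4.46, close to the dim level of 4.335. Of 3 tested endothelial, 3 tested T and NK cell and 3 tested neutrophil markers limma called 0, with 1, 1 and 0 at an unadjusted p below 0.05.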

How the data were processed

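Total RNA of sorted cells was extracted with a column kit, amplified with a whole-transcriptome kit and biotin-labelled, per the labels' protocols. The deposited values were log2 signals, and per the submitters' processing notes the authors obtained them by RMA (Affymetrix Expression Console 1.4). They were used as given, with 2 decimals and 0 columns unused. The genome build behind the array annotation is not given in the sources used here.

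Of 34390 probe sets, 23521 carried 1 gene symbol, 1814 several and 9055 none. The brightest probe set stood for the 1082 genes with more than 1. Dim genes, with a mean under the 30th percentile (log2 4.335), were left out, and levels of different probe sets were not compared. limma 3.58.1 in R 4.3.3 tested the differences: a mean for each subset, an intensity trend in the variance prior, two-sided tests and Benjamini-Hochberg adjustment over 15529 genes. Residual degrees of freedom were 3, plus 5.77 prior ones, and standard errors had a median of 0.193. The number of arrays, 2 a subset, limits the precision.

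Deviations of same-numbered samples from their subset means correlated over all tested genes (r = 0.146, 0.136 and 0.178). The sex-linked genes Xist and Eif2s3y split the samples by number. Xist was at 7.39 to 7.97 in samples 1 and 10.99 to 11.39 in samples 2, and Eif2s3y at 7.76 to 8.27 and 2.99 to 3.72. In every subset the 2 samples thus differed in these sex-linked genes. The numbers may therefore pair the samples. The labels do not say so, and the main fit had no block. Values with the number as a block stand beside results whose call it changes. Alternatives changed the probe set rule, filter, scaling, variance prior, samples fitted and block, and left out each sample.

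The script was tested on simulated data. Genes and lists were chosen with earlier results of these data known. Genes with values for every sample were those called with or without the block, the 6 of smallest p in each comparison, the 3 of highest and 3 of lowest signal, and Ctsk, Tfeb, Lamp1, Lamp2 and Cd68. Of the other lysosome genes, those called and up to 3 of smallest p per group are named, and of the cell markers those called and the defining markers. Cdh1, Epcam, Cd1d1 and Cdh5 were added after their values were seen.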

Additional observations from a re-analysis of the deposited data

How the results depend on the processing

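Between CX3CR1high and CX3CR1low cells the count of called lysosomal genes was 0 in limma's main setting. It was 1 (Ctsk) with genes below the 50th percentile left out, 2 (Arsb and Ctsk) with the replicate block, and 0 to 1 when each sample was left out in turn, the 1 being Ctsk without the CX3CR1high sample 2. The first of these settings tests fewer genes. The cause of the calls gained with the block or without a sample was not tested. The count of other lysosome genes called was 1 (Acp5) with genes below the 50th percentile left out, with arrays shifted to one 75th percentile and with the replicate block, and 0 without any one sample. Among the marker genes named, the block added calls for the 6 fibroblast genes between the ends and for Mcpt4 between CX3CR1high and CX3CR1int cells (-1.545, adjusted p = 0.0254 with the block and 0.0956 without). In the other comparisons both counts were 0 under all 14 alternatives. The median difference of the 35 genes ranged from -0.20 to -0.075 between the ends, from -0.195 to -0.05 between CX3CR1high and CX3CR1int and from -0.065 to 0.05 between CX3CR1int and CX3CR1low cells. Between CX3CR1int and CX3CR1low cells 18 genes were lower, 12 with arrays shifted to one 75th percentile and 7 without the CX3CR1int sample 1.

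Calls over all genes varied more. Between the ends 62 became 26 without a filter, 154 with the replicate block, 39 with only the 4 samples compared and 0 to 39 without single samples. Between CX3CR1high and CX3CR1int cells 22 became 0 without a filter, 2 with quantile normalization, 4 without an intensity trend, 47 with the block, 14 with 4 samples and 0 to 17 without single samples. The 1 call between CX3CR1int and CX3CR1low cells became 0 in 11 of 14 alternatives.

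Of 756 alternatives of 54 single-gene differences, 26 reversed, all of differences of at most 0.215 in size, 4 passed the threshold and 0 lost it. Shifting arrays to one 75th percentile turned Ctsb (0.010) and Lamp1 (0.020) between CX3CR1int and CX3CR1low cells. All other reversals came from leaving out 1 sample, and their cause was not tested. Between the ends the ranges were -0.075 to 0.325 for Galns and -0.045 to 0.165 for Tfeb. Between CX3CR1high and CX3CR1int cells they were -0.16 to 0.08 for Atp6v1a, -0.195 to 0.075 for Ctsa, -0.335 to 0.065 for Galns, -0.205 to 0.045 for Grn and -0.125 to 0.085 for Tfeb. Between CX3CR1int and CX3CR1low cells they were -0.05 to 0.12 for Cd68, -0.06 to 0.03 for Ctsb, -0.25 to 0.06 for Ctsl, -0.10 to 0.22 for Gaa, -0.235 to 0.015 for Grn, -0.445 to 0.015 for Gusb, -0.105 to 0.095 for Lamp1, -0.065 to 0.135 for Lamp2 and -0.09 to 0.23 for Scarb2.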
